A study of Homo sapiens with 4 samples.

Results

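The housekeeping heme synthesis genes were examined on exon arrays of a pair of human cell lines in which ADAR1, the enzyme that turns adenosine into inosine in double-stranded RNA, had been lowered. The members are ALAS1, ALAD, UROS, UROD, CPOX, PPOX and FECH, 7 genes chosen by name, and each was read from the brightest transcript cluster (the array's gene-level probe group) that the platform annotation assigns to that symbol alone. Of the 7, 6 were measured in this way, among 14232 genes in all, and each of the 6 had 1 such cluster. ALAD was represented only by a cluster that it shares with another gene, so no value is given for it. A cluster that CPOX shares with another gene was likewise left aside.

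HepG2 cells derive from a hepatocellular carcinoma, and K562 cells from a chronic myeloid leukaemia and show erythroid features. Either kind of cell stably carried a plasmid with an siRNA against ADAR1 (ADARkd) or with a scrambled siRNA (SCR), so that control and knockdown cells alike were transfected. There were 4 arrays, 1 per line and arm. The siRNA was picked for the strongest reduction of ADAR among several tried, and the labels do not say whether the transfected cells were clones or pools. The deposited series was made to learn how ADAR shapes splicing, and its gene-level values are used here.

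Heme is built in a chain of enzymatic steps that starts and ends in the mitochondrion and passes through the cytosol in between. The initial step, joining glycine to succinyl-CoA, is made by ALAS1 in most tissues and by ALAS2 in erythroid cells, and it is the step at which the pathway is mainly controlled. ALAD, UROS and UROD act in the cytosol, CPOX and PPOX carry out oxidations in the mitochondrion, and FECH inserts the iron. Liver cells make heme largely for cytochrome P450 enzymes, and erythroid cells make it for haemoglobin.

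ADAR itself was lower in the ADARkd array of either line, with a log2 difference of -1.69 for the arrays labelled HepG2 and of -1.21 for K562. A gene was called kept in a line when the mean of its 2 log2 values reached the median of all genes, 5.31 on the arrays labelled HepG2 and 5.28 in K562, which left 7116 genes per line. On the arrays labelled HepG2, the hepatocyte genes ALB (albumin) and AFP (alpha-fetoprotein) were dim, at 3.04 and 2.97 and at 2.89 and 2.85, and 2 of 25 measured hepatocyte markers were kept. Those 2 were the urea cycle enzyme CPS1, which was bright at 10.89 and 10.56 and carried most of the list's summed intensity of 2257 and 1870 (446 and 475 in K562), and the endoderm factor FOXA1. Of 13 fibroblast and stromal markers 8 were kept there and 2 in K562, and of 10 epithelial markers 6 and 5. K562 kept 3 of the 25 hepatocyte markers. The filter keeps 7116 of 14232 genes in each line by design, and 8 of 13 and 6 of 10 are near that share. In K562, 9 of 12 measured erythroid markers were kept, with the embryonic globin HBZ at 10.73 and 10.65. Since most hepatocyte markers were not kept, the arrays are called labelled HepG2 throughout, and every difference between the lines carries that limit. The precision of each value is limited by the number of arrays, 1 per line and arm, and a difference within a line has no replicate check.

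ALAS1, which makes 5-aminolevulinate at the start of the pathway, stood at 5.99 in the SCR and 6.22 in the ADARkd array labelled HepG2, and at 6.09 and 6.13 in K562 (all log2 intensities). The 4 values lay close together and the lines overlapped. UROS closes the linear tetrapyrrole into uroporphyrinogen, and stood at 7.38 and 7.78 on the arrays labelled HepG2 and at 7.33 and 7.10 in K562. Both K562 values were below both of the others, by a margin of 0.05 between the SCR arrays.

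UROD, which removes carboxyl groups from uroporphyrinogen in the cytosol, stood at 5.55 and 5.98 on the arrays labelled HepG2 and at 7.39 and 7.35 in K562. CPOX, which oxidises the resulting coproporphyrinogen in the mitochondrial intermembrane space, stood at 5.76 and 5.86 there and at 7.64 and 7.32 in K562. For both genes the K562 arrays were high, the arrays labelled HepG2 were low and the lines did not overlap.

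PPOX removes the last hydrogens to give protoporphyrin, and was under the filter on all 4 arrays, at 4.78 and 4.72 on those labelled HepG2 and at 4.67 and 4.67 in K562. FECH, which places ferrous iron in protoporphyrin, stood at 6.97 and 6.87 on the arrays labelled HepG2 and at 6.86 and 6.70 in K562. The 4 FECH values spanned less than the gap that separated the lines for UROD or CPOX. On the deposited linear scale the intensities of UROD were 46.7 and 63.2 against 167 and 164, and those of FECH 125 and 117 against 116 and 104.

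**Figure D1:**
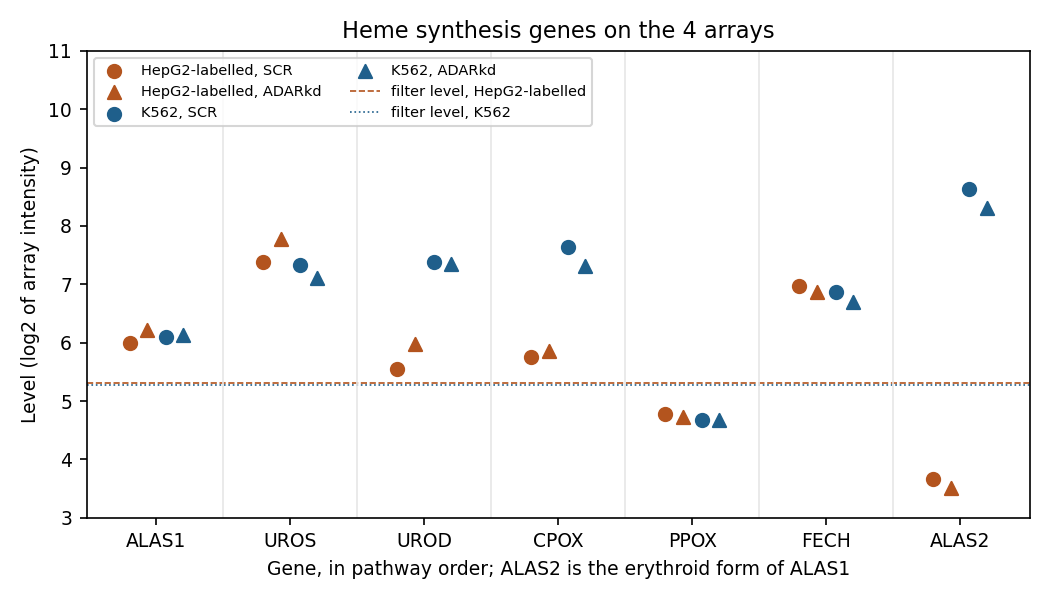
Log2 array intensity (vertical axis) of the 6 measured housekeeping genes and of ALAS2, with 1 point per array; orange points are the arrays labelled HepG2 and blue points K562, circles SCR and triangles ADARkd, and the horizontal lines mark the filter levels of 5.31 and 5.28. UROD, CPOX and ALAS2 separate by line, while ALAS1 and FECH lie close together on all 4 arrays and PPOX lies under the filter; heights of different genes are not comparable, because each has its own probes.

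The lines were compared first, to see which steps of the pathway differ between an erythroid-like background and the arrays labelled HepG2. UROD was 3.04-fold higher in K562, a log2 difference of 1.61 ± 0.21 (SE, 2 arrays per line; limma adjusted p = 0.00102), with a 95% interval of 1.10 to 2.11. CPOX was 3.17-fold higher, by 1.67 ± 0.21 (limma adjusted p = 0.000794), with an interval of 1.17 to 2.16. UROD and CPOX act one after the other in the pathway. The difference was larger between the SCR arrays than between the ADARkd arrays for both, at 1.84 against 1.37 for UROD and 1.88 against 1.46 for CPOX. Each single-arm value exceeds a 2-fold difference. Both genes stood little above the filter level of 5.31 on the arrays labelled HepG2. With log2(value + 16) the differences were 1.36 for UROD and 1.43 for CPOX, so their sizes depend on those low values.

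The other 3 genes tested did not pass. ALAS1 differed by 0.01 (interval -0.46 to 0.47; limma adjusted p = 0.979), with opposite signs in the SCR arrays (0.10) and the ADARkd arrays (-0.09). FECH differed by -0.14 (interval -0.61 to 0.33; limma adjusted p = 0.599). For UROS the difference was -0.37 (interval -0.92 to 0.18; limma adjusted p = 0.244), made up of -0.05 between the SCR arrays and -0.69 between the ADARkd arrays. For these 3 genes the intervals lie inside a 2-fold difference in either direction, but they do not show equal levels. PPOX entered the fit only with no filter on low values, and then differed by -0.08 ± 0.18 (limma adjusted p = 0.758).

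Of the 5 members tested, 2 were called as higher in K562 and 0 in the other direction, where a call needs both a 2-fold difference and a limma adjusted p below 0.05. Of all 8028 genes tested, 10.3% were called with K562 above and 14.7% with the arrays labelled HepG2 above, or 25.1% either way. The members' median difference was 0.01, beside 0.05 over all genes tested. All 5 were kept in both lines, so none entered the test through the line in which it was bright. The fit had 1 residual degree of freedom, the difference between the lines' knockdown differences, and nothing says that the arrays of a line came from separate cultures, so replicate arrays do not stand behind these errors and p-values, which borrow their spread from other genes.

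ALAS2, the erythroid form of the initial enzyme, stood at 3.67 and 3.51 on the arrays labelled HepG2 and at 8.64 and 8.31 in K562. The difference was 4.89 ± 0.20 (limma adjusted p = 6.76e-06). It passed the filter only through K562, where it was bright, and its dim values lie where background can set the level, so the size of the difference is uncertain. Of 12 measured erythroid markers, 8 passed the filter only through K562, ALAS2 among them, and so had to differ. The summed intensity of the 12 was 5984 and 5449 in K562 against 1340 and 1695 on the arrays labelled HepG2. Without the transferrin receptor TFRC, left out after its values were seen because it was bright on all 4 arrays, the sums were 3983 and 3788 against 150 and 143. The part of erythroid identity in the differences of UROD and CPOX was not tested. In bulk RNA of this kind, fewer cells of one state and less RNA per cell cannot be told apart.

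**Figure D2:**
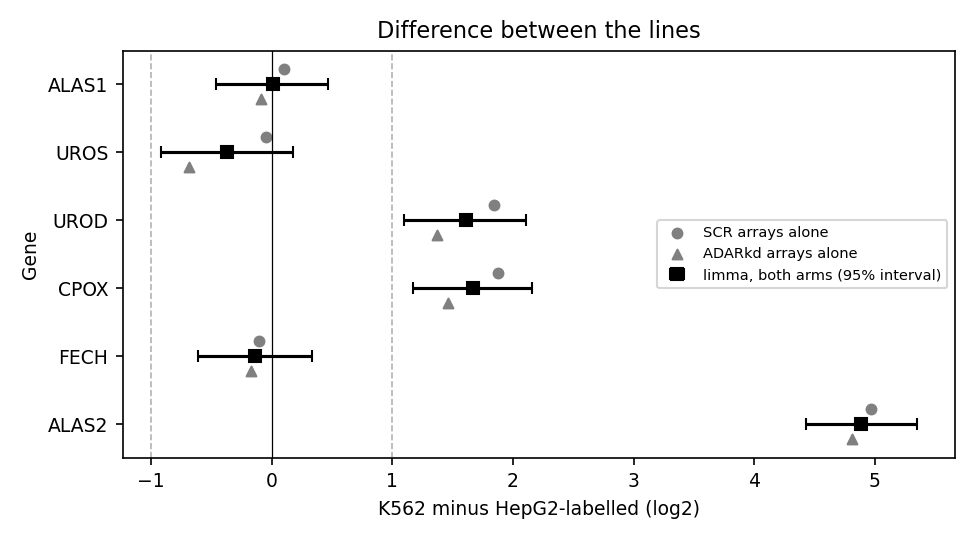
K562 minus the arrays labelled HepG2 (log2, horizontal axis) for the 5 tested housekeeping genes and ALAS2; squares with bars are the limma estimate and its 95% interval, grey circles the difference between the SCR arrays and grey triangles that between the ADARkd arrays, and dashed lines mark a 2-fold difference. The intervals of UROD (1.10 to 2.11) and CPOX (1.17 to 2.16) lie beyond 2-fold, and those of ALAS1, UROS and FECH cross 0.

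The upstream sequences of UROD and CPOX are shown beside those of ALAS1 and FECH, since the former pair differed between the lines and the latter pair were not called. They are the 250 bases before the gene start in RefSeq's promoter table (build GRCh38.p14), read along the gene. Capitals mark matches to AGATAA or TGATAA, words bound by GATA factors, and to CCNCNCCC, a CACCC-type word bound by KLF1, on either strand. UROD lies on the plus strand (chr1:45012004-45012253), CPOX on the minus strand (chr3:98593612-98593861), ALAS1 on the plus strand (chr3:52197833-52198082) and FECH on the minus strand (chr18:57586703-57586952).
UROD: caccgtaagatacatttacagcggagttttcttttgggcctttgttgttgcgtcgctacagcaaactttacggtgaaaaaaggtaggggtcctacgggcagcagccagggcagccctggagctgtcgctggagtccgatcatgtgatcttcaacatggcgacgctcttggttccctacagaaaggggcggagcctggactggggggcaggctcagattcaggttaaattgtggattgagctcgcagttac
CPOX: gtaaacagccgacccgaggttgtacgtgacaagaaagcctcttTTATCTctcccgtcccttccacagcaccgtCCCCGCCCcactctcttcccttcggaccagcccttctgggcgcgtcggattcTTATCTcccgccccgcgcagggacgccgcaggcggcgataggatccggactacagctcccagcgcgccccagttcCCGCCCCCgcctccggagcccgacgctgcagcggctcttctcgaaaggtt
ALAS1: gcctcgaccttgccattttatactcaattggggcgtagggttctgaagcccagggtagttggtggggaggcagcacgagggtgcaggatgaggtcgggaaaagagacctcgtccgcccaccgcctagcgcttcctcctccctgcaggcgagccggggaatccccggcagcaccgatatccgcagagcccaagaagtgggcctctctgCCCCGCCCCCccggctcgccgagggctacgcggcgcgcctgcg
FECH: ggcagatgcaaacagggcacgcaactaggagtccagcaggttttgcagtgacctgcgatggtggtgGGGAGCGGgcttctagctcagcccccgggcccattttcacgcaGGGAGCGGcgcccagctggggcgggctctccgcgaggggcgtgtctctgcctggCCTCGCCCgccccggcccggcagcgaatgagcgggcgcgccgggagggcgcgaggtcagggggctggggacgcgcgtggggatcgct

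CPOX held AGATAA 2 times, both on the reverse strand, at 207 to 202 and 125 to 120 bases before the start. UROD, ALAS1 and FECH held neither GATA word, and UROD held no CCNCNCCC either. ALAS1 held CCNCNCCC 2 times in overlapping positions and FECH 3 times. Of 34943 distinct windows of 250 bases in the table, 9.19% held AGATAA, 6.67% TGATAA and 53.3% CCNCNCCC. The ALAS2 window held AGATAA once, on the reverse strand at 127 to 122 bases before the start. PPOX, which is listed with 2 starts, held AGATAA once before one of them, at 63 to 58 bases on the reverse strand, and neither GATA word before the other. The SP1 word GGGCGG, which can overlap CCNCNCCC, was found in all 4 printed windows and in 42.5% of all windows. The motif of NRF1, a regulator of mitochondrial genes, was found in none of the 4 and in 5.04% of all, the CREB word TGACGT in none of the 4 and 7.09% of all, and the E-box CACGTG in none of the 4 and 6.32% of all. Of the 7 members, 6 were in the promoter table. These are matches of letters, not sites.

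The knockdown comparison asked whether the pathway differed where ADAR was lower. On the arrays labelled HepG2 none of the 5 kept members was 1.5-fold apart in either direction, where 18.1% of 7116 kept genes were (12.4% higher and 5.73% lower in ADARkd). UROD stood 0.44 higher in ADARkd (135% of the SCR intensity) and UROS 0.40 higher (132%). ALAS1 differed by 0.24, CPOX by 0.10 and FECH by -0.10. Differences at least as far from 0 as that of UROD were seen in 29.7% of kept genes, and as that of UROS in 32.7%. PPOX, under the filter, differed by -0.05. Markers of cell identity differed between the same 2 arrays. Of 8 kept stromal markers 4 were at least 1.5-fold lower in ADARkd, among them COL3A1 (-2.42) and FN1 (-1.80). The 2 higher were LUM (0.78) and DCN (0.64). COL3A1, COL1A1 and FAP lay under the filter in ADARkd, at 4.93, 5.11 and 4.53. They were kept through their SCR values, so the count of lower markers depends in part on the filter. Background can set such dim values, so the sizes are uncertain. The summed intensity over the 13 measured was 2268 in SCR and 2271 in ADARkd. Of 6 kept epithelial markers 4 were higher, with CLDN1 at 2.44 and KRT19 at 1.32. The 1 lower was KRT14 at -0.90, which fell to 5.19, under the filter. The sum over the 10 measured was 1702 in SCR and 2903 in ADARkd. The part of these in the members' differences was not tested.

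The median difference of the members on these arrays was 0.24, with 4 above 0 and 1 below. Over all kept genes the median was 0.11, which quantile normalization and loess both bring to 0.00. Relative to that median, UROD stood at 0.33, UROS at 0.30 and ALAS1 at 0.13, CPOX at -0.01 and FECH at -0.21. After loess the CPOX difference was 0.003. The enzymes of the early and cytosolic steps were thus on the higher side of the median and FECH, the last, on the lower side, all by less than 1.5-fold.

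In K562, CPOX stood 0.32 lower in ADARkd (80.1% of the SCR intensity), UROS 0.23 lower (85.1%) and FECH 0.16 lower (89.3%), while UROD differed by -0.03 and ALAS1 by 0.04. ALAS2 differed by -0.33 (79.5%). None of the 5 kept members was 1.5-fold apart, beside 1.03% of 7116 kept genes (0.267% higher and 0.759% lower). Kept genes in K562 spread less, with an SD of 0.19 against 0.47 on the arrays labelled HepG2, and differences at least as far from 0 as that of CPOX were seen in 10.6% of them, of ALAS2 in 9.71% and of UROS in 22.5%.

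The members' median in K562 was -0.16, with 1 above 0 and 4 below, beside -0.07 over all kept genes. Relative to that median CPOX stood at -0.25, UROS at -0.16 and FECH at -0.09, UROD at 0.04 and ALAS1 at 0.11. The sign of UROD changed with the scaling, to 0.06 after quantile normalization and 0.04 after loess. ALAS1 was above the median of kept genes in both lines and FECH below it in both, whereas UROS was above in one line and below in the other.

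**Figure D3:**
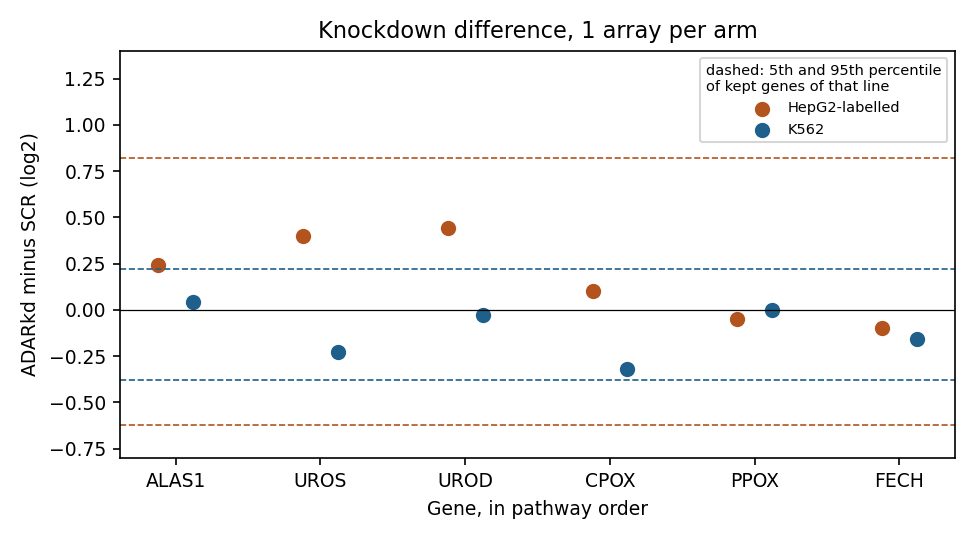
ADARkd minus SCR (log2, vertical axis) for the 6 measured housekeeping genes in pathway order, with orange points for the arrays labelled HepG2 and blue points for K562, 1 array per arm and so with no error bars; dashed lines mark the 5th and 95th percentiles of kept genes in the same colour (-0.62 and 0.82, and -0.38 and 0.22). All members lie inside the percentiles of their line, with UROD (0.44) and UROS (0.40) highest and CPOX in K562 (-0.32) lowest.

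A knockdown effect common to the lines was fitted next. It was 0.20 ± 0.21 for UROD, 0.14 ± 0.19 for ALAS1, 0.09 ± 0.23 for UROS, -0.11 ± 0.21 for CPOX and -0.13 ± 0.20 for FECH (SE, 2 arrays per arm). None of the 5 members passed by limma, with an adjusted p of 1.0 for each and none under 0.05 before adjustment. No gene of the 6204 tested passed either (0.0%), ADAR included at an adjusted p of 0.871, and 179 (2.89%) had an unadjusted p under 0.05. The widest interval was that of UROS, from -0.45 to 0.62. These intervals do not mark the limit of detection with 4 arrays. ADAR did not pass at a shared difference of -1.45, so larger shared changes could also be missed.

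The resemblance of the members to each other was described by the root mean square distance between their log2 values on the 4 arrays, each gene centred on its own mean, among the 6204 genes kept in both lines. UROD and CPOX were 0.16 apart, and CPOX ranked number 48 of 6203 from UROD. ALAS1 and FECH were 0.16 apart as well, but FECH ranked number 1330 from ALAS1, and ALAS1 number 1146 from FECH. UROS lay 0.22 from ALAS1 and 0.21 from FECH, and the distances from these 3 to UROD or CPOX ran from 0.80 to 1.02. With 4 arrays that share a line or an arm, this distance mostly reads the difference between the lines. The nearest genes were GSTP1 (0.025) and PHF19 (0.053) for UROD, and KCNK5 (0.047) and THRB (0.056) for CPOX. They were RPP25L (0.006) and ZNF460 (0.016) for ALAS1, PLEKHA5 (0.021) and KDM1A (0.028) for UROS, and OSBPL2 (0.017) and TMBIM6 (0.020) for FECH.

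Genes that feed the pathway and move its intermediates were compared from a list of 14, of which 11 were measured and tested. Of these, 2 were called with K562 above and 1 with the arrays labelled HepG2 above, with a median of -0.40. That is a share near the 25.1% of all genes called either way. ABCB10, a mitochondrial inner membrane transporter of erythroid cells, was higher in K562 by 1.77 ± 0.21 (limma adjusted p = 0.000542). SLC25A37 (mitoferrin-1), which brings iron into the mitochondrion, was higher by 1.18 ± 0.25 (limma adjusted p = 0.00834), and its adjusted p was 0.064 by limma with no arm term. The SLC25A37 difference was 0.76, under 2-fold, between the SCR arrays and 1.59 between the ADARkd arrays. TSPO, an outer mitochondrial membrane protein that binds porphyrins, was lower in K562, at -1.18 ± 0.20 (limma adjusted p = 0.00302), and lost the 2-fold bound with log2(value + 16), at -0.96.

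Under the knockdown, SLC25A37 went from 8.56 to 7.31 on the arrays labelled HepG2 (-1.25) and from 9.32 to 8.91 in K562 (-0.41). TSPO stood higher in ADARkd in both lines, by 0.65 and 0.40. ABCG2, a plasma membrane exporter that carries porphyrins, stood at 5.04 and 6.76 on the arrays labelled HepG2, a difference of 1.72 from a level under the filter, and differed by -0.17 in K562, where it was not kept. TMEM14C, an importer of protoporphyrinogen, differed by -0.49 in K562 and by 0.05 on the arrays labelled HepG2, and the latter turned negative after quantile normalization and loess. In all, 2 of 11 kept genes of this list were at least 1.5-fold higher and 1 lower on the arrays labelled HepG2. The counts were 1 and 2 after quantile normalization, beside 18.1% of all kept genes either way. In K562 the count was 0 of 10 either way, beside 1.03% of all kept genes.

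The assembly of iron-sulfur clusters bears on FECH, whose mammalian form carries such a cluster. Of 15 genes listed 7 were measured and tested, and the median difference between the lines was 0.14. In either direction 0 were called, beside 25.1% of all genes tested. GLRX5, a glutaredoxin of this machinery, differed by 0.48 ± 0.20 (limma adjusted p = 0.0919). None was 1.5-fold apart with the knockdown in either line, beside 18.1% of kept genes on the arrays labelled HepG2 and 1.03% in K562. The cysteine desulfurase NFS1 differed by 0.41 on the arrays labelled HepG2 and 0.05 in K562, and the electron donor FDX1 by 0.13 and -0.26. GLRX5 differed by 0.20 and 0.24, and NFU1 by -0.07 and -0.22. ISCA2, not kept in K562, differed by -0.25 on the arrays labelled HepG2.

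Of 14 genes of heme use, export and breakdown, 13 were measured and 11 tested, of which K562 was above in 1 call and the arrays labelled HepG2 in 2. The counts were 3 and 2 after quantile normalization, 1 and 3 after loess, and 0 and 2 with log2(value + 16), as several differences lay near 2-fold. The share called, 3 of 11, is near the 25.1% of all genes. HEBP1, a heme-binding protein, was lower in K562, at -1.60 ± 0.20 (limma adjusted p = 0.000695) and PGRMC2, which carries heme within the cell, was lower at -1.37 ± 0.20 (limma adjusted p = 0.00149). BLVRB, a biliverdin reductase, was higher by 1.09 ± 0.25 (limma adjusted p = 0.0121), and fell under the 2-fold bound with log2(value + 16), at 0.92. On the arrays labelled HepG2, BLVRB stood 0.82 higher in ADARkd, COX10, which starts the conversion of heme to the form used by cytochrome oxidase, 0.61 higher, and the heme oxygenase HMOX2 0.55 higher. In K562 these differed by -0.01, -0.08 and 0.21, HEBP1 by -0.28, and SLC48A1, also of this list, by -0.21. The inducible heme oxygenase HMOX1, named after its values were seen, was under the filter on all 4 arrays, at 4.93, 5.05, 4.06 and 4.29.

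Among 21 regulators of the pathway 16 were measured and 14 tested, of which K562 was above in 4 calls and the arrays labelled HepG2 in 1. Of all genes tested, 10.3% were called with K562 above and 14.7% the other way. The 4 were the erythroid transcription factors NFE2 (4.41), GATA1 (3.56), TAL1 (2.72) and KLF1 (2.69), each kept only through K562, with means of 3.75 to 4.84 on the other arrays. They had to differ to enter in this way, and background can set those dim means, so the sizes are uncertain. The 1 in the other direction was the clock repressor NR1D2 at -1.96 ± 0.20 (limma adjusted p = 0.000279), named because it completes the count. NRF1 differed by 0.11 between the lines, and with the knockdown by -0.05 on the arrays labelled HepG2 and -0.14 in K562. EIF2AK1, the heme-regulated kinase that slows translation when heme is short, differed by 0.00 and -0.25. ACO1, an iron-sensing protein, stood 0.88 higher in ADARkd on the arrays labelled HepG2 and differed by -0.05 in K562. On the former arrays it was the 1 regulator of 10 kept that was 1.5-fold apart, beside 18.1% of all kept genes. FOXO1 and PPARGC1B were lower in ADARkd on those arrays, at -0.39 and -0.37, and differed by 0.13 and 0.04 in K562. KLF1 differed by 0.13 in K562.

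**Figure D4:**
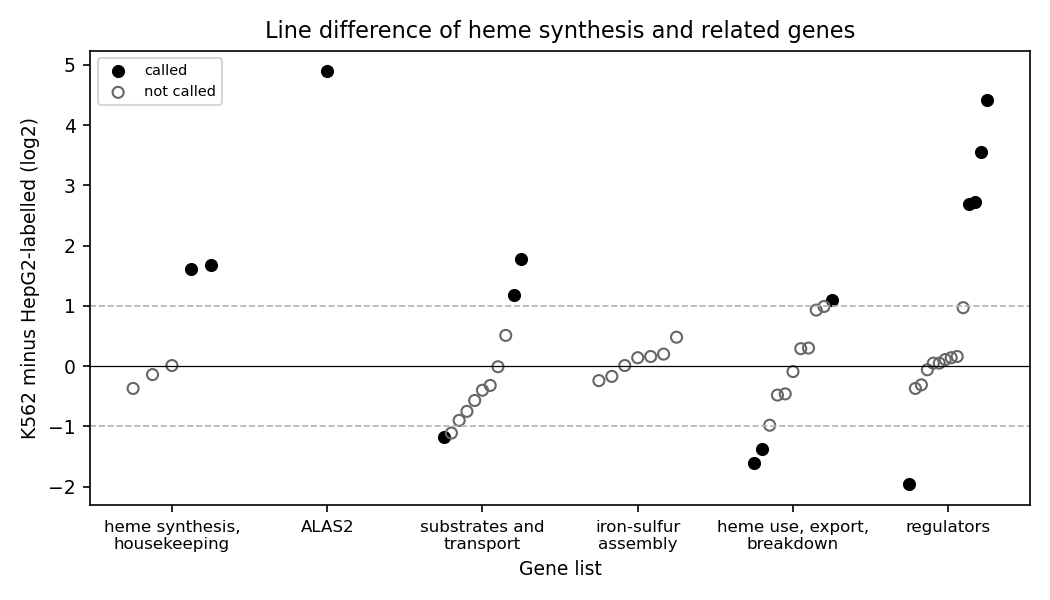
K562 minus the arrays labelled HepG2 (log2, vertical axis) for each tested gene of the housekeeping pathway, ALAS2 and the 4 related lists; filled points were called (at least 2-fold, as marked by dashed lines, with an adjusted p below 0.05) and open points were not. Called genes reach 4.41 among the regulators and 4.89 for ALAS2, the 2 called members lie at 1.61 and 1.67, and no iron-sulfur gene was called.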

How the data were processed

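Total RNA was extracted with TRIzol, labelled with biotin and hybridised to Affymetrix whole-transcript arrays, per the labels' protocols. The deposited table gives 1 linear intensity for each transcript cluster and array. The submitters' processing notes name RMA and hg18; further steps are not given in the sources used here. Median intensities of the deposited columns ran from 36.1 to 37.0, and signal over background was not analysed here.

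Of 17881 clusters, 14432 had 1 gene symbol, 2408 several and 1041 none, and only the first kind was named. Single symbols were matched by Entrez number to a RefSeq table (GRCh38.p14), where 14404 were found and 0 changed. The brightest cluster per gene was used and log2 was taken without an offset. limma 3.58.1 in R 4.3.3 (lmFit and trended eBayes; two-sided p-values adjusted by Benjamini-Hochberg over all genes fitted) was run with terms for line and arm. Genes kept in either line entered the comparison of lines, and those kept in both the shared effect. Differences within a line have no test; a gene counted there if 1.5-fold apart. The fits were tested on simulated data. The share of false calls exceeded the nominal rate for the shared effect and for 2-fold differences between lines. Few such line differences were recovered, in part because their size equalled the bound that a call needs. The simulation gave each gene the same spread on all 4 arrays. In the data, knockdown differences spread more on the arrays labelled HepG2 (SD 0.47) than in K562 (0.19). The simulated rates may thus not carry over to these arrays, and adjusted p-values are approximate. Figures were drawn with matplotlib 3.10.9.

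The members and lists were chosen with earlier results of these data known. The text names all members, up to 4 called genes per related list and the 3 largest knockdown differences per related list and line. It also names the 2 nearest genes per member, and ADAR, ALB, AFP, HBZ and some other cell type markers. Alternatives were quantile normalization, loess, log2(value + 16), no filter, a filter at the 75th percentile, the mean of all clusters, no arm term, no trend, no bound and a 2-fold bound.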

Additional observations from a re-analysis of the deposited data

Results flagged for a closer look

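For 3 members the knockdown difference had opposite signs in the lines, with 1 array per arm on each side; the difference between the lines was not tested, because it leaves no residual degrees of freedom. For UROS the difference was 0.40 on the arrays labelled HepG2 and -0.23 in K562, which are 0.64 apart, and the signs stayed opposite relative to the median of kept genes (0.30 and -0.16), after quantile normalization (0.27 and -0.14) and after loess (0.26 and -0.15). For UROD it was 0.44 and -0.03, 0.47 apart, and the K562 value was 0.06 after quantile normalization. For CPOX it was 0.10 and -0.32, 0.42 apart, and the value on the arrays labelled HepG2 was -0.01 relative to the median of kept genes.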

How the results depend on the processing

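The number of members called was 2 in the comparison of the lines and 0 in the shared effect and in either knockdown comparison under every alternative run. UROD ran from 1.36 to 1.84 in the line comparison over its alternatives and CPOX from 1.43 to 1.88, with limma adjusted p-values of 0.000527 to 0.00183 and of 0.000389 to 0.00157. Both were called under each that has a test; the values from the SCR or ADARkd arrays alone leave no residual degrees of freedom and have none. ALAS1 turned to -0.04 after loess and to -0.09 between the ADARkd arrays alone, from 0.01, and was called in neither. With the filter at the 75th percentile, 3 members were tested, and 1159 of all genes were called in place of 2014. Its higher median of the members (1.61) comes from that smaller set. Of these 3, only UROS passed the stricter filter in both lines. UROD and CPOX passed it in K562 alone, where they were bright, so their calls at this setting are not separate support. The counts of 0 at this setting rest on UROS alone for the shared effect and for the HepG2-labelled pair of arrays. The terms for line and arm already match arrays within a line and within an arm; the labels give no replicate numbers for a further block. With both terms, leaving out an array leaves no residual degrees of freedom. With line alone, an alternative chosen after seeing the data, UROD and CPOX were called without each array in turn, at 1.39 to 1.82 and 1.51 to 1.83 (limma adjusted p up to 0.0329 and 0.0263), and no other member was; UROS reached an adjusted p of 0.00915 by limma without the SCR array labelled HepG2, at -0.57 and so under the 2-fold bound. Signal over background limits what can be said of PPOX and of ALAS2 on the arrays labelled HepG2, whose levels lie under the filter. The same limit bears on the size of the UROD and CPOX differences, since both genes stood little above the filter on those arrays.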
